A study of Caenorhabditis elegans with 8 samples.

Results

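The numbered cuticle collagen genes of *C. elegans*, named col- and a number, were followed together with *ram-2*, a gene named for abnormal male tail rays, in whole embryos depleted of the zinc-finger transcription factor ZTF-11. Members were taken by name alone. A transcript was kept when its RefSeq identifier was paired with the symbol *ram-2* or with col- followed by a number. This gave 175 transcripts of 149 genes, out of 50606 transcripts counted. Of these transcripts 32 had 0 counts in every library, 37 had too few counts to be tested and 106, each of a different gene, were tested. Names came from a RefSeq gene table for 168 of the members and from the second supplementary file of the study for the other 7, which were *col-8*, *col-10*, *col-144*, *col-159*, *col-166*, *col-170* and *col-182*. The copy of that file used here is shortened and sorted by the authors' test on these libraries. The names of those 7 are therefore linked to the outcome. The count of higher members at an unadjusted p under 0.05 and the median fold change are given below with and without them. Other counts are given only with them. Another 11 col symbols of the RefSeq table, among them *col-50*, *col-93* and *col-160*, were paired with no transcript and were not analysed here.

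The study asked which genes ZTF-11, the worm member of the Myt1 family, keeps in check in embryos. All libraries came from one strain, TV23837, which carries GFP at the *ztf-11* locus in *ztf-11(wy1100)*, the *eri-1(mg366)* mutation that makes animals sensitive to RNAi, and the transgenes oxIs322 and ynIs49. In *ztf-11* KD, mothers were fed from the L1 stage with bacteria that make double-stranded RNA against *ztf-11*. In control, they were fed bacteria with the empty vector L4440. Both groups fed for 64 hr at 20 °C with 1 mM IPTG, the inducer of the double-stranded RNA, and their eggs were then held in M9 buffer for 3 hr. Each group had 4 libraries of whole embryos from independent cultures, with 39343105 to 45609675 counts. *ztf-11* itself stood at 9.42 to 14.7 CPM (CPM are counts per 1000000 counts of the library, after TMM scaling of the library sizes) in *ztf-11* KD and at 31.2 to 68.4 CPM in control embryos, with no overlap. The knockdown therefore leaves some transcript, and the libraries are mixtures of all embryonic tissues, in which more epidermal cells and more collagen RNA per cell cannot be told apart.

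The nematode cuticle is a collagen-rich exoskeleton that the epidermis secretes afresh before hatching and before each molt. Its collagens are short Gly-X-Y chains that assemble as trimers in the endoplasmic reticulum, where prolyl hydroxylases and protein disulfide isomerases modify them, and they are cut by proteases and crosslinked after secretion. Collagen genes are switched on in waves during each cuticle cycle, some early and some late, and some are used at a single stage such as the adult or the dauer larva. In the embryo the epidermis first lays down a temporary precuticle while the body elongates, and makes the collagen cuticle of the first larva in the last part of embryogenesis. A few collagens are known from mutants with altered body shape and carry dpy, rol, sqt, bli or lon names, whereas most numbered col genes have no known mutant phenotype.

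Libraries of a group were far from alike for these genes, and this bears on every comparison below. Among the 34 members with a mean of 1000 or more counts per library, *ztf-11* KD replicate 3 was the lowest of its group for 31, control replicate 3 was the highest of the controls for 28 and control replicate 2 was the lowest of the controls for 32. *ztf-11* KD replicate 3 was below control replicate 3 for 30 of the 34. The sum of all members except the 4 with most reads was 6635, 10019.8, 3239 and 9848 CPM across the *ztf-11* KD libraries, against 2942, 1094, 5301 and 1935 CPM across the control libraries, in the order of replicates 1 to 4, as in every such list below. The 3 *ztf-11* KD libraries other than replicate 3 were above all controls, and replicate 3 lay between control replicates 1 and 3. Counts are therefore given below without each library in turn, and the largest fold changes also without the library that moved them most.

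**Figure D1:**
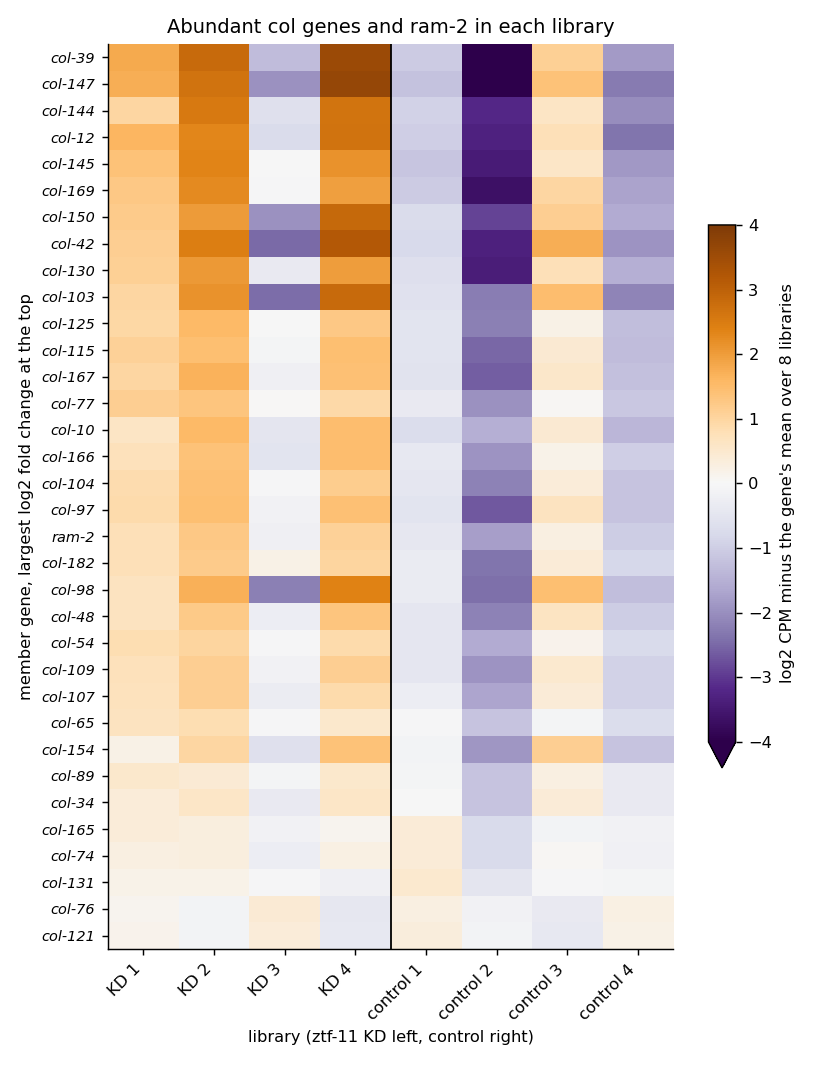
Each row is one of the 34 members with a mean of 1000 or more counts per library, ordered by log2 fold change, and each column a library, with the 4 *ztf-11* KD libraries left of the 4 control libraries. Colour gives log2 CPM minus the mean of that gene over the 8 libraries, with the lowest values drawn in the darkest colour of the scale. Nearly every row is low in control replicate 2 and high in *ztf-11* KD replicates 2 and 4, while the rows at the bottom, among them *col-74* and *col-121*, are nearly even.

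Taken gene by gene, most collagen genes stood higher in *ztf-11* KD embryos, but none passed the threshold. Of the 106 members tested, 82 had a higher and 24 a lower fitted level in *ztf-11* KD than in control embryos. That is 77.4% higher, beside 49.2% of all 14328 transcripts tested, and the median log2 fold change (*ztf-11* KD over control, given below with its standard error after ±) was 0.55 beside -0.0088 over all transcripts. In edgeR's quasi-likelihood test 0 members had an adjusted p under 0.1, as for 0% of all transcripts, and the smallest adjusted p of a member was 0.359, shared by *col-54*, *col-58*, *col-77* and *col-159*. That test did not call *ztf-11* itself either, whose groups did not overlap. Its log2 fold change was -1.97 and its adjusted p 0.262, the lowest of all transcripts. An unadjusted p under 0.05 was found for 24 higher members, or 22.6%, beside 8.8% of all transcripts tested. It was found for 2 lower members, or 1.89%, beside 3.99%. Without the 7 members named from the supplementary file, 19 of 99 were higher with an unadjusted p under 0.05, or 19.2%, and the median log2 fold change was 0.42.

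The number of such members rested on single libraries. It was 41 without *ztf-11* KD replicate 3, or 36.3% of the members in that fit beside 12.1% of all its transcripts, and 46 without control replicate 3, or 42.2% beside 13.4%. It was 12 without *ztf-11* KD replicate 2 (10.9% beside 4.41%), 14 without *ztf-11* KD replicate 4 (13.1% beside 4.58%), 12 without control replicate 2 (10.9% beside 5.88%) and 11 without control replicate 4 (9.91% beside 4.85%). It was 17 without *ztf-11* KD replicate 1 (15.2% beside 5.8%) and 16 without control replicate 1 (14.5% beside 7.36%). The share over all transcripts moved the same way as that of the members each time. The median log2 fold change stayed positive in each of these fits, between 0.36 without control replicate 2 and 0.80 without control replicate 3. With DESeq2 in place of edgeR, 13 members were called higher at an adjusted p under 0.1, or 10.9% of those it tested, beside 2.45% of all transcripts it tested, and 0 were called lower, beside 0.311%. The 13 were *col-10*, *col-54*, *col-58*, *col-65*, *col-77*, *col-104*, *col-115*, *col-125*, *col-142*, *col-159*, *col-166*, *col-167* and *ram-2*, and 12 of them were also tested by edgeR, each with an unadjusted p under 0.05 there. *col-142*, which had too few counts for edgeR, rests on 223 counts in *ztf-11* KD and 16 counts in control libraries. Its *ztf-11* KD replicate 3, at 0.0250 CPM, was below control replicates 1 and 3, and replicate 4, at 3.17 CPM, was by far the highest. Of the 13, 3 (*col-10*, *col-159* and *col-166*) took their names from the supplementary file. These counts describe a family whose members vary together between libraries, and they carry no test over the family.

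The difference between the groups was larger among abundant members than among rare ones. With 1000 or more counts per library, 34 of 34 members were higher in *ztf-11* KD embryos, 20 of them (58.8%) with an unadjusted p under 0.05, and the median log2 fold change was 1.51. All transcripts of that abundance had a median of -0.085, with 39.2% higher and 9.34% at an unadjusted p under 0.05 and higher. With 100 to 1000 counts, 24 of 29 members were higher, and 3 (10.3%) had an unadjusted p under 0.05 and were higher, beside 11.3% of all transcripts of that abundance. Their median was 0.32, beside 0.062. With 30 to 100 counts, 13 of 22 were higher, 1 (4.55%) at an unadjusted p under 0.05, beside 7.06% of all transcripts, and the median was 0.11, beside 0.16. Under 30 counts 11 of 21 were higher, 0 at an unadjusted p under 0.05, beside 3.31% of all transcripts, and the median was 0.0097, beside 0.061. In these 3 bins the members' share was below that of all transcripts. The bins were set by the mean over all 8 libraries, so high counts in *ztf-11* KD alone can place a member in the top bin. *col-39*, for example, had 11858 counts over the *ztf-11* KD libraries and 1578 counts over the control libraries. The counts in the top bin are thus not independent of the difference they describe. Of the 34, *col-10*, *col-144*, *col-166* and *col-182* took their names from the supplementary file. *col-76* and *col-121*, the lowest of the 34, turned to the other side of 0 under other scalings. When each library was left out in turn, 31 to 34 of the 34 abundant members stayed higher, and those of them with an unadjusted p under 0.05 numbered from 8 without control replicate 4 to 29 without control replicate 3, fits in which 4.85% and 13.4% of all transcripts were so called.

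**Figure D2:**
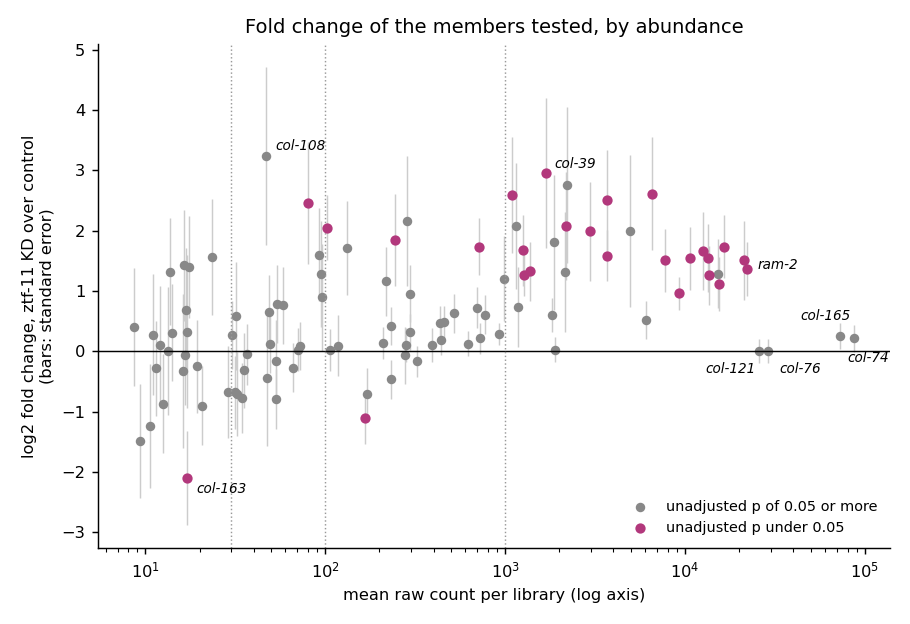
The log2 fold change of *ztf-11* KD over control embryos (vertical axis, bars are standard errors) is plotted against the mean raw count per library (log axis) for the 106 members tested, and magenta points have an unadjusted p under 0.05. Dotted lines mark 30, 100 and 1000 counts. The 34 points right of 1000 counts lie above 0, with a median of 1.51, and the 4 with most reads, at the far right, lie at 0.25 or less.

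The 4 members with the most reads did not share the difference. *col-74*, *col-165*, *col-76* and *col-121* held 49.4% of all counts on members, which together made up 1.02% of all counts. *col-74*, the most abundant member at 2063 CPM per kb of coding sequence, stood at 2353, 2436, 1629 and 2333 CPM across the *ztf-11* KD libraries, against 2593, 1153, 2027 and 1765 CPM across the control libraries. *col-165*, next at 1693 CPM per kb, stood at 2113, 2012, 1495 and 1777 CPM across the *ztf-11* KD libraries, against 2186, 977, 1536 and 1515 CPM across the control libraries. For both, control replicate 1 was the highest of all 8 libraries and control replicate 2 the lowest, and the groups overlapped. Their log2 fold changes were 0.22 ± 0.23 and 0.25 ± 0.22, with unadjusted p of 0.368 and 0.277. Part of the *col-74* gene overlaps exons of *gtap-1* on the other strand in the annotation, and the strand setting of the counting is not given in the sources used here.

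*col-76* and *col-121* had an order of libraries of their own. *col-76*, at 458 CPM per kb, stood at 724, 627, 892 and 506 CPM across the *ztf-11* KD libraries, against 814, 605, 520.4 and 795 CPM across the control libraries. *col-121*, at 568 CPM per kb, stood at 664, 559, 774 and 457 CPM across the *ztf-11* KD libraries, against 749, 552, 457 and 685 CPM across the control libraries. *ztf-11* KD replicate 3, the lowest of its group for most abundant members, was the highest of all 8 libraries for both genes, and *ztf-11* KD replicate 4 and control replicate 3 were the lowest. Their log2 fold changes were 0.0078 ± 0.20 and 0.0067 ± 0.20, turned slightly negative with other scalings of the library sizes, and cannot be read as a direction. The exons of *col-121* overlap those of *daf-15* on the other strand. *col-131*, named after its values were seen and at 48.1 CPM per kb, was as even, with 44.8 ± 5.60 CPM in *ztf-11* KD and 44.0 ± 12.6 CPM in control embryos (SD, n = 4 each).

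The sum of *col-74*, *col-165*, *col-76* and *col-121* was 5855, 5634, 4789 and 5073 CPM across the *ztf-11* KD libraries, against 6342, 3288, 4541 and 4760.4 CPM across the control libraries, a mean of 5338 ± 492 CPM in *ztf-11* KD and 4733 ± 1254 CPM in control embryos (SD, n = 4 each). The *ztf-11* KD libraries lay inside the range of the controls. The sum of all other members averaged 7435 ± 3201 CPM in *ztf-11* KD and 2818 ± 1819 CPM in control embryos (SD, n = 4 each). All members together averaged 12773 ± 3440.1 CPM in *ztf-11* KD and 7551 ± 2518 CPM in control embryos (SD, n = 4 each), and members other than these 4 made up most of that difference.

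Next in number of reads came *ram-2* and *col-97*, both above *col-76* in CPM per kb, which were higher on average in *ztf-11* KD embryos although the groups overlapped. *ram-2*, at 561 CPM per kb, stood at 717, 1006, 366 and 883 CPM across the *ztf-11* KD libraries, against 315, 123, 504 and 208 CPM across the control libraries. *ztf-11* KD replicates 1, 2 and 4 were above all controls and replicate 3 was below control replicate 3. Its log2 fold change was 1.37 ± 0.45, with an unadjusted p of 0.015 and an adjusted p of 0.383. *col-97*, at 552 CPM per kb, stood at 661, 979, 324 and 958 CPM across the *ztf-11* KD libraries, against 245, 56.0, 569 and 157 CPM across the control libraries. The same 3 *ztf-11* KD libraries were the highest, with control replicate 2 lowest, and the log2 fold change was 1.51 ± 0.65, unadjusted p 0.047. It was 2.24 without control replicate 3.

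*col-10*, whose promoter is a common tool to drive genes in the epidermis, stood at 356, 686, 165 and 646 CPM across the *ztf-11* KD libraries, against 143, 80.7, 321 and 89.6 CPM across the control libraries. Its log2 fold change was 1.55 ± 0.57, unadjusted p 0.024, and 2.13 without control replicate 3, and the groups overlapped because *ztf-11* KD replicate 3 was low and control replicate 3 high. *col-125* stood at 554, 842, 280.0 and 694 CPM across the *ztf-11* KD libraries, against 199, 62.0, 330.4 and 119.4 CPM across the control libraries. It had the same order of libraries and a log2 fold change of 1.74 ± 0.52, unadjusted p 0.0094. In this range of abundance *col-166*, *col-167*, *col-104*, *col-107* and *col-109* had log2 fold changes of 1.54, 1.67, 1.51, 1.12 and 1.26, each with an unadjusted p under 0.05, and *col-48* one of 1.29 with an unadjusted p of 0.054. They and *col-125* were named after their values were seen. *col-97* shares exons with ZK1010.12 and *col-125* with *best-7*, both on the other strand.

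*col-34*, a collagen whose reporter marks rectal epithelial cells in the study, differed less than other members of like abundance. It stood at 168, 197, 103 and 195 CPM across the *ztf-11* KD libraries, against 131, 57.8, 172 and 103 CPM across the control libraries. The groups overlapped widely, with control replicate 3 above *ztf-11* KD replicates 1 and 3. The log2 fold change was 0.52 ± 0.32, with an unadjusted p of 0.136.

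Some abundant members spread even more widely within the groups, and were named after their values were seen. *col-42* stood at 94.2, 237, 7.70 and 385 CPM across the *ztf-11* KD libraries, against 24.8, 4.29, 141 and 11.3 CPM across the control libraries. *ztf-11* KD replicate 3 was below control replicates 1, 3 and 4, and the log2 fold change of 1.99 ± 1.26 had an unadjusted p of 0.15. *col-103* stood at 38.2, 85.6, 3.55 and 137 CPM across the *ztf-11* KD libraries, against 12.9, 4.10, 54.1 and 4.42 CPM across the control libraries. Here *ztf-11* KD replicate 3 was the lowest of all 8 libraries, and the log2 fold change was 1.81 ± 1.12, unadjusted p 0.143. *col-98* had a like pattern, with a log2 fold change of 1.31 ± 1.00, unadjusted p 0.223. *col-89* and *col-154* had smaller values, 0.60 ± 0.28 and 0.74 ± 0.66.

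**Figure D3:**
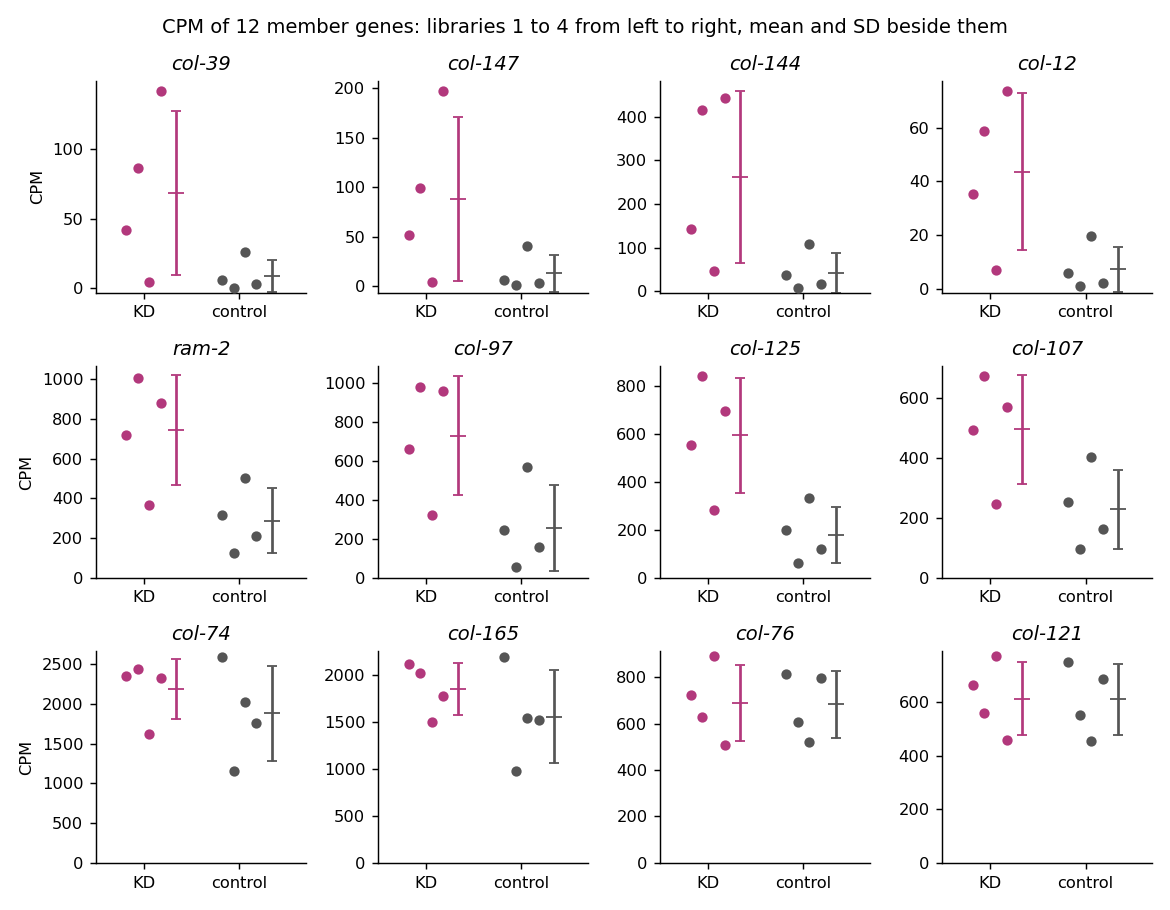
Each panel gives the CPM of one member in *ztf-11* KD replicates 1 to 4 (magenta, left) and control replicates 1 to 4 (grey, right), in that order from left to right, with the mean and SD beside the points. The vertical axes differ between panels. In the 8 panels of the upper rows *ztf-11* KD replicate 3 falls below control replicate 3, while in the lowest row *col-74*, *col-165*, *col-76* and *col-121* overlap throughout.

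The largest fold changes belonged to members that were very low in control replicate 2. *col-39* stood at 42.1, 85.9, 4.87 and 141 CPM across the *ztf-11* KD libraries, against 5.79, 0.356, 25.7 and 3.36 CPM across the control libraries. The spread within each group was wide, *ztf-11* KD replicate 3 lay within the range of the controls, and the log2 fold change was 2.96 ± 1.25, unadjusted p 0.044. *col-147* stood at 52.2, 99.5, 4.07 and 197 CPM across the *ztf-11* KD libraries, against 6.84, 0.996, 41.0 and 3.26 CPM across the control libraries. *ztf-11* KD replicate 3 was below control replicates 1 and 3, and the log2 fold change of 2.76 ± 1.30 had an unadjusted p of 0.065. Without control replicate 3 the log2 fold changes of *col-39* and *col-147* were 4.40 and 4.55, and without *ztf-11* KD replicate 4 they were 2.34 and 2.01.

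*col-144* stood at 141.6, 414, 46.1 and 442 CPM across the *ztf-11* KD libraries, against 37.1, 7.71, 108 and 17.5 CPM across the control libraries. The 3 *ztf-11* KD libraries other than replicate 3 were above all controls, and the log2 fold change was 2.62 ± 0.94, unadjusted p 0.022. *col-145*, its neighbour in the genome, stood at 116, 228, 43.9 and 198 CPM across the *ztf-11* KD libraries, against 20.1, 4.17, 66.8 and 12.3 CPM across the control libraries. The same 3 *ztf-11* KD libraries were above all controls, with a log2 fold change of 2.50 ± 0.84, unadjusted p 0.017. *col-12*, a collagen gene whose promoter is used to drive expression in the epidermis, stood at 35.4, 58.7, 6.97 and 73.6 CPM across the *ztf-11* KD libraries, against 5.85, 1.19, 19.6 and 2.25 CPM across the control libraries. All *ztf-11* KD libraries were above control replicates 1, 2 and 4, and the log2 fold change was 2.59 ± 0.97, unadjusted p 0.027. Without control replicate 3 the log2 fold changes of *col-144*, *col-145* and *col-12* were 3.63, 3.56 and 3.79, and the lowest with any single library left out were 2.25, 2.15 and 2.23.

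Of the other members with the largest fold changes, *col-169* had a log2 fold change of 2.08 ± 0.90 with an unadjusted p of 0.047, and *col-92* one of 2.46 ± 1.01 with an unadjusted p of 0.037. *col-146* and *col-150* had 2.16 ± 1.07 and 2.08 ± 1.05, with unadjusted p of 0.077 and 0.08. *col-108* had the largest fitted value, 3.24 ± 1.47, but on 339 counts in *ztf-11* KD and 36 counts in control libraries in all, with 0 counts in *ztf-11* KD replicate 3 and in control replicate 2 and with *ztf-11* KD replicate 1 below control replicate 1. Its unadjusted p was 0.054. Its log2 fold change was 2.30 when *ztf-11* KD replicate 4 was left out and 4.89 when control replicate 1 was. Without control replicate 3 those of *col-169*, *col-92*, *col-146* and *col-150* were 3.36, 3.96, 3.03 and 3.24. *col-92* lies within an intron of *dhc-4* and *col-39* within one of *dph-2*, both on the other strand, and *col-147* shares exons with T06E4.5 on the other strand, so part of their counts could belong to those genes.

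Only 3 members had all *ztf-11* KD libraries above all controls, as did 3.61% of all transcripts tested. *col-65* was the only abundant one, at 319, 357, 193 and 286 CPM across the *ztf-11* KD libraries, against 192, 87.7, 189.9 and 123 CPM across the control libraries. The margin was narrow, since *ztf-11* KD replicate 3 stood just above control replicate 1, and the log2 fold change was 0.96 ± 0.27, unadjusted p 0.0057. *col-159* stood at 2.88, 5.87, 1.72 and 4.91 CPM across the *ztf-11* KD libraries, against 1.16, 0.285, 1.35 and 0.914 CPM across the control libraries. Its log2 fold change was 2.05 ± 0.54, unadjusted p 0.0035, and it shares exons with *col-160* on the same strand, a gene not analysed here. *col-156* stood at 0.408, 0.401, 0.450 and 0.576 CPM across the *ztf-11* KD libraries, against 0.153, 0, 0.399 and 0.173 CPM across the control libraries, on 77 counts in *ztf-11* KD and 32 counts in control libraries. Its log2 fold change of 1.32 ± 0.88 had an unadjusted p of 0.166, and its exons overlap those of *mig-17* on the other strand. It was 2.02 without control replicate 3. *col-156* reached the minimum count for testing in every *ztf-11* KD library but, among controls, only in replicate 3. Its separation is thus not independent of that filter. Without *ztf-11* KD replicate 3, 41 members (36.3%) had all *ztf-11* KD libraries above all controls, beside 13.2% of all transcripts in that fit, and without control replicate 3, 27 members (24.8%) did, beside 8.87%. The count was 3 without *ztf-11* KD replicate 1, 2 or 4 or control replicate 4, beside 4.23%, 4.04%, 4.29% and 4.36% of all transcripts, 6 without control replicate 1, beside 5.92%, and 2 without control replicate 2, beside 4.05%. With library totals in place of TMM scaling, the count was 1, and the share over all transcripts was not computed.

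*col-77*, *col-54* and *col-58* came close to such a separation, and were named after their values were seen. *col-77* stood at 149.6, 172, 68.8 and 128 CPM across the *ztf-11* KD libraries, against 53.1, 17.8, 69.9 and 31.9 CPM across the control libraries. Only control replicate 3 reached *ztf-11* KD replicate 3, and the log2 fold change was 1.59 ± 0.43, unadjusted p 0.0046. *col-54* stood at 45.3, 51.5, 24.6 and 47.1 CPM across the *ztf-11* KD libraries, against 18.6, 8.44, 28.0 and 14.9 CPM across the control libraries. Here too the groups overlapped only through the replicates numbered 3, and the log2 fold change was 1.27 ± 0.35, unadjusted p 0.0051. *col-58* had a log2 fold change of 1.74 ± 0.47, unadjusted p 0.0044.

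The 24 members lower in *ztf-11* KD embryos all had under 1000 counts per library, 5 of them 100 to 1000. *col-163* was the only one with all *ztf-11* KD libraries below all controls, as were 2.46% of all transcripts tested, at 0.102, 0.236, 0.200 and 0.0443 CPM across the *ztf-11* KD libraries, against 0.568, 0.237, 1.33 and 0.395 CPM across the control libraries. The values rest on 24 counts in *ztf-11* KD and 112 counts in control libraries, with *ztf-11* KD replicate 2 just under control replicate 2, and the log2 fold change was -2.10 ± 0.78, unadjusted p 0.022. The minimum count for testing was reached mostly in control libraries, so this separation is not independent of that filter either. *col-84* stood at 1.68, 2.14, 2.10 and 3.79 CPM across the *ztf-11* KD libraries, against 6.09, 4.93, 7.87 and 2.03 CPM across the control libraries. *ztf-11* KD replicate 4 was above control replicate 4, so the groups overlapped, and the log2 fold change was -1.11 ± 0.43, unadjusted p 0.028. *col-122*, *col-124* and *col-119* had log2 fold changes of -1.48, -1.24 and -0.90 on means of 9.38 to 20.8 counts per library, with unadjusted p of 0.15, 0.258 and 0.202. Without *ztf-11* KD replicate 2 that of *col-122* was -2.45, and without *ztf-11* KD replicate 1 that of *col-124* was -2.30.

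Collagens known from later stages were at the limit of detection. *col-19* and *col-7*, both collagens of the adult cuticle, had 6 and 35 counts in all *ztf-11* KD libraries together, against 2 and 24 counts in all control libraries. Neither had enough counts to be tested. *col-2*, a dauer collagen, had 12 counts in *ztf-11* KD and 17 counts in control libraries, and *col-40* had 34 counts in *ztf-11* KD and 28 counts in control libraries. *col-17*, a collagen of larval cuticles, stood at 0.740, 0.306, 0.0250 and 2.55 CPM across the *ztf-11* KD libraries, against 0.677, 0.237, 3.52 and 0.494 CPM across the control libraries. One library of each group, both with many other collagens high, held most of its counts, and the log2 fold change of -0.44 ± 1.12, unadjusted p 0.702, turned to 0.92 without control replicate 3. *col-99*, which encodes a transmembrane collagen and not a cuticle collagen, is listed with 17 transcripts, of which 16 had 0 counts in every library and 1 had 15 counts in *ztf-11* KD and 3 counts in control libraries. Of the 11 members with several transcripts only *col-86* had one that could be tested, and how the authors treated reads shared between transcripts is not given in the sources used here, so low counts of these genes say nothing of their expression.

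Neighbouring collagen genes were compared, since the annotation places 47 member genes in 20 runs of adjacent protein-coding genes, of which 8 had at least 2 members tested. In the run of *col-144*, *col-145* and *col-10* the log2 fold changes were 2.62, 2.50 and 1.55, and in the run that holds *col-167*, *col-169* and *col-170* they were 1.67, 2.08 and 1.72. *col-13* and *col-12*, adjacent duplicates with nearly the same sequence, had 1.57 ± 0.97 and 2.59 ± 0.97. In these 3 runs every tested member was higher in *ztf-11* KD embryos, as in the runs of *col-104*, *col-39* and *col-149* given below. Of all members tested, 77.4% were higher. Only uniquely mapped reads were counted, and *col-13* had a mean of 23.5 counts against 1097 counts for *col-12*, so the split between those copies is uncertain. In the other 5 runs the values were more uneven, with 1.51 for *col-104* and 0.11 for *col-105*, -0.67 for *col-9* and 1.84 for *col-44*, 2.96 for *col-39* and 1.43 for *col-79*, 0.66 for *col-149* and 2.08 for *col-150*, and -0.44 for *col-17* and 0.41 for *col-73*. The rarer neighbours rest on few counts, and differences between neighbours were not tested.

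Gene structure and overlap with other genes were compared as features the naming rule did not use. Members with 2 coding exons had a median log2 fold change of 1.25 over 46 tested, those with 3 one of 0.32 over 18, those with 4 and over one of 0.20 over 30, and those with 1 coding exon one of 0.68 over 11. Among abundant members alone, the medians were 1.67 over 3 with 1 coding exon, 1.77 over 18 with 2, 1.29 over 6 with 3 and 0.14 over 6 with 4 and over, the class that holds *col-165*, *col-76*, *col-121* and *col-131* beside *col-109* and *col-115*. *col-74*, also even between the groups, has 2 coding exons. Over all members tested, the median was 0.28 over 25 that share exons with another coding gene, 1.20 over 12 within an intron of another gene and 0.56 over 68 with no overlap. Among abundant members the median was 1.68 for the 7 that share exons with another gene and 1.44 for the 26 that do not. Of those classes, 4 of the 25, 4 of the 12 and 15 of the 68 members had an unadjusted p under 0.05 and were higher. Over all members tested the share was 22.6%, beside 8.8% of all transcripts tested. The classes were not matched for abundance, and differences between them were not tested.

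Among other genes of cuticle formation, the collagens named for body shape, the collagen enzymes and the precuticle genes had medians near 0. Differences between lists were not tested. Of the collagens named for body shape, 15 were tested. In *ztf-11* KD embryos 9 of these stood higher and 6 lower, 0 of them with an unadjusted p under 0.05, and the median log2 fold change was 0.087. *dpy-17*, the one with most reads, had 0.092 ± 0.16, *dpy-14* had 0.087 ± 0.16 and *sqt-3* had 0.17 ± 0.16. Their summed level was 23591, 19649, 24556 and 17649.5 CPM across the *ztf-11* KD libraries, against 25248, 16937, 16862 and 21586 CPM across the control libraries. Within each group the order of libraries was that of *col-76* and *col-121*, and the groups overlapped throughout. Of the enzymes and chaperones that fold and process collagen, 11 were tested, with 5 higher, 6 lower, 0 at an unadjusted p under 0.05 and a median of -0.060. The prolyl hydroxylases *dpy-18* and *phy-2* had 0.065 ± 0.12 and 0.18 ± 0.15. Of 8 tested precuticle genes, which build the temporary matrix that precedes the cuticle, 3 stood higher and 5 lower, with 0 at an unadjusted p under 0.05 and a median of -0.036.

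Of 6 tested genes of cuticle crosslinking, 5 stood higher in *ztf-11* KD embryos and 1 lower, 3 were higher with an unadjusted p under 0.05, and the median was 0.38. *bli-3*, the dual oxidase that makes the peroxide for tyrosine crosslinks, had a log2 fold change of 0.35 ± 0.13 (unadjusted p 0.020), its maturation factor *doxa-1* one of 0.66 ± 0.25 (0.024) and the peroxidase *skpo-1* one of 0.95 ± 0.18 (0.00043). None had an adjusted p under 0.1, and the whole list had 363, 370.1, 344 and 349.5 CPM across the *ztf-11* KD libraries, against 314, 286, 280.1 and 309 CPM across the control libraries, with every *ztf-11* KD library above every control. Of 7 tested markers of epidermis and its junctions, 5 stood higher and 2 lower, with 0 at an unadjusted p under 0.05 and a median of 0.050. Their summed level ranged from 3121 to 3714 CPM in *ztf-11* KD and from 2835 to 3482 CPM in control embryos. Of 9 tested basement membrane genes, 5 stood higher and 4 lower, with 1 higher at an unadjusted p under 0.05 and a median of 0.26. The epidermal factors *elt-1* and *elt-3* were listed at 0 in all libraries, as genes with several transcripts often were, so they do not check the label of the tissue.

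The summed levels of the pharynx and intestine lists were high and low in the same libraries as the abundant collagens, and that of neuron genes was not. The summed level of 6 pharynx genes was 982, 1629, 485 and 1763 CPM across the *ztf-11* KD libraries, against 384, 200.5, 783 and 332 CPM across the control libraries, and that of 8 intestine genes 3737, 4849, 2198 and 4789 CPM across the *ztf-11* KD libraries, against 2409, 1109, 3012 and 1872 CPM across the control libraries. As for the collagens, *ztf-11* KD replicate 3 and control replicate 2 were the lowest of their groups and control replicate 3 the highest control. Most of the intestine sum was *act-5* and *asp-1*, with log2 fold changes of 1.12 ± 0.33 and 0.73 ± 0.37. The lower intestine genes *elt-2*, *ges-1* and *elt-7* had -0.0041 ± 0.12, -0.049 ± 0.12 and -0.23 ± 0.22. In the pharynx list *pha-4* had 0.075 ± 0.17. All 4 tested genes of the pharynx were higher, 3 with an unadjusted p under 0.05 and a median log2 fold change of 1.39, all 4 tested genes of body wall muscle were higher with an unadjusted p under 0.05 and a median of 0.87, and of 7 intestine genes 4 were higher and 3 lower, with a median of 0.56. Of 16 tested maternal genes, which mothers load into eggs, 0 were higher and 16 lower, with a median of -0.43 and 0 at an unadjusted p under 0.05. Their sum was 877, 808, 820 and 505 CPM across the *ztf-11* KD libraries, against 655, 1800.1, 823 and 737 CPM across the control libraries. The highest value was in control replicate 2, where the collagens were lowest, and the lowest in *ztf-11* KD replicate 4, where they were high. Other libraries did not follow that order. Control replicate 3, the highest control for collagens, was above control replicates 1 and 4, and *ztf-11* KD replicate 1 was above *ztf-11* KD replicate 3. The summed level of 8 neuron genes was 141, 141.7, 157 and 145 CPM across the *ztf-11* KD libraries, against 189, 166, 168 and 178 CPM across the control libraries, with every *ztf-11* KD library below every control and *ztf-11* KD replicate 3 the highest of its group. Most of that sum was *tbb-4*, a tubulin of ciliated neurons, at -0.43 ± 0.14 with an unadjusted p of 0.0097, while the other 5 neuron genes tested were higher, 0 of them with an unadjusted p under 0.05, and the median of the 6 was 0.53. All 9 tested genes that are first transcribed in early embryos were lower, with a median of -0.54. Of genes of the adult, 2 were tested and both were lower, and no sperm gene of the list was tested. The yolk gene *vit-5* had -1.55 ± 0.56 (unadjusted p 0.019) and *fat-7* had -0.82 ± 0.48 (0.116). The summed level of the list ranged from 1.15 to 2.22 CPM in *ztf-11* KD and from 2.01 to 4.94 CPM in control embryos. Maternal and early RNAs are lost as embryos grow older, and pharynx, muscle, intestine and late collagen genes come on. The part of embryonic age, read from these lists, in the collagen values was not tested. Without control replicate 2, the library with most maternal RNA, the median log2 fold change of the members was 0.36. In that fit 12 members (10.9%) were higher at an unadjusted p under 0.05, beside 5.88% of all transcripts. Without control replicate 1, which held less maternal RNA, there were 16 (14.5% beside 7.36%). Without control replicate 4, which also held less, there were 11 (9.91% beside 4.85%).

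**Figure D4:**
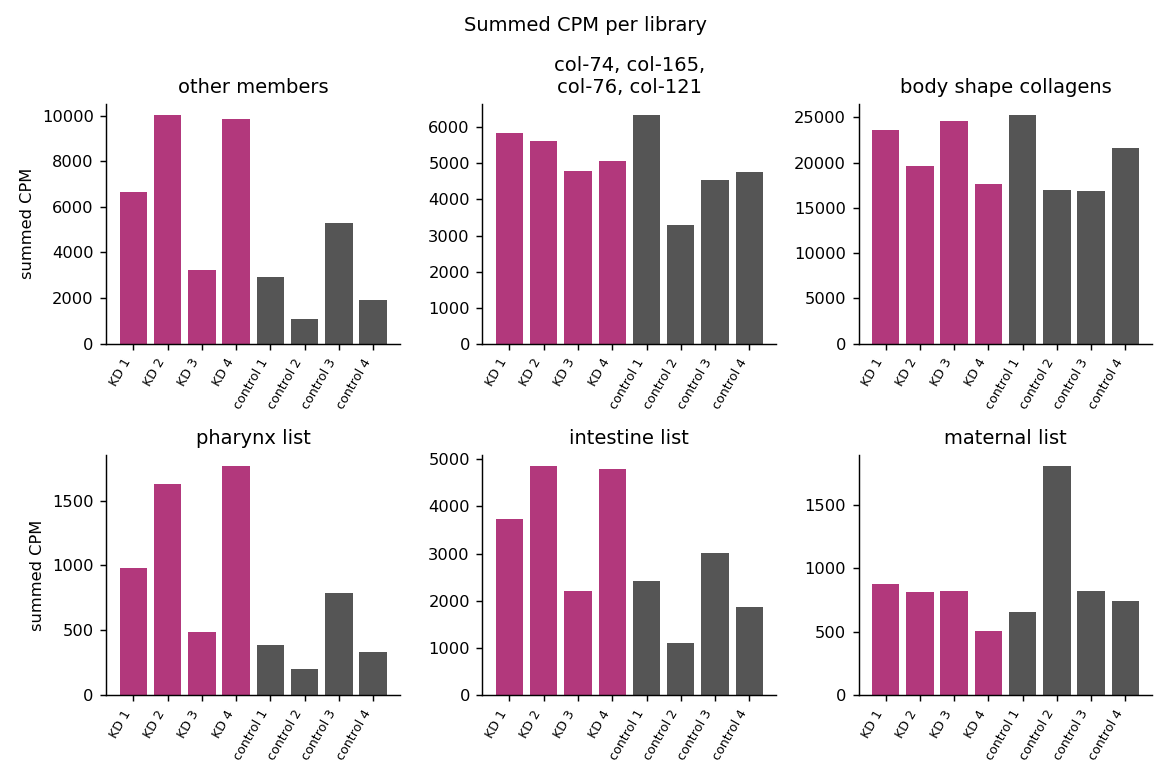
Bars give the summed CPM per library of members other than the 4 with most reads, of those 4, of the body shape collagens, and of the lists of pharynx, intestine and maternal genes, with *ztf-11* KD replicates 1 to 4 (magenta) left of control replicates 1 to 4 (grey). In the other members, the pharynx list and the intestine list, *ztf-11* KD replicates 2 and 4 are highest and control replicate 2 lowest, while the maternal list is highest in control replicate 2, at 1800.1 CPM.

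Outside the family, the transcripts whose log2 CPM followed the mean of the tested members most closely over the 8 libraries were NM_068862, which has no symbol in the tables used here, *epic-1* and T25G12.3. Pearson's r was 0.998, 0.998 and 0.997, as a description of 8 libraries that share their scaling and differ in condition. Their log2 fold changes were 2.43, 1.06 and 1.00.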

How the data were processed

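RNA-seq of 8 libraries of whole embryos, 4 *ztf-11* KD and 4 control, was analysed, with groups taken from the labels. The deposited values are raw counts per RefSeq transcript, with no normalization by the authors. Per the labels and the study's methods, the authors made stranded mRNA libraries, trimmed adaptors, aligned them to ce10 with TopHat2 and used featureCounts on unique alignments. Versions, the strand setting and the rule for reads over several transcripts are not given in the sources used here, so counts of overlapping, antisense, duplicated and multi-transcript genes are uncertain. Libraries held 39343105 to 45609675 counts. At this depth the spread between cultures sets the precision of all but rare transcripts. The most alike libraries within a group had a chi-square per degree of freedom of 33.7, so none is a copy of another.

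Of 50606 transcripts, 45715 took their name from RefSeq's gene table for WBcel235 and 183 took it from the second supplementary file of the study. Coding lengths, coding exons, neighbours and overlaps came from the Ensembl annotation of WBcel235, and no coordinates were carried over. Transcripts kept by filterByExpr (minimum count 10) were scaled by TMM and tested in edgeR 4.0.16 under R 4.3.3 with glmQLFit (robust) and glmQLFTest on condition alone. Benjamini-Hochberg adjustment covered all 14328 transcripts tested, and an adjusted p under 0.1 was the threshold, following the study. A p under 0.05 without adjustment serves only to count transcripts beside the same count over all of them. Standard errors were derived from the fold change and its F statistic. CPM are counts per 1000000 of the scaled library size, and log2 CPM used a prior count of 2. Levels of different genes were compared as CPM per kb of coding sequence, while abundance bins and rankings by reads used counts not corrected for length. The edgeR fit was also run on simulated counts, drawn independently for each gene with a fixed spread. That run does not cover members that vary together between libraries.

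The genes named are members whose groups do not overlap, the 10 largest positive and 5 most negative log2 fold changes, the 6 highest levels per kb and members with a known role. Others are named as a whole class (neighbours, an exon class, DESeq2 calls) or are said to be named after their values were seen. For other lists, genes with the most reads are examples. The members and the 13 gene lists were chosen with earlier results of these data known. The alternatives were DESeq2 1.42.0 on all transcripts, its size factors in edgeR, library totals, other filters on low counts, counts summed per gene, an adjusted p under 0.05, a block for the replicate number and each library left out in turn. Leaving out the 7 members named from the supplementary file, and the counts of abundant members without each library, were added after the data were seen.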

Additional observations from a re-analysis of the deposited data

Results flagged for a closer look

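In 9 of 68 groups of 4 libraries examined for the named members, one library stood far from the other 3, by Dixon's criterion on the gap over the range. Chance sets a library apart in about 1 in 20 groups, and groups of genes that vary together are not independent.

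In control embryos, control replicate 3 stood high for *col-147* at 41.0 CPM, for *col-17* at 3.52 CPM, for *col-2* at 0.222 CPM and for *col-19* at 0.0443 CPM. Control replicate 1 stood high for *col-108*, at 0.611 CPM, and control replicate 2 for *col-99*, at 0.0711 CPM. In *ztf-11* KD embryos, *ztf-11* KD replicate 3 stood low for *col-74* at 1629 CPM and for *col-13* at 0.150 CPM, and *ztf-11* KD replicate 2 stood high for *col-19* at 0.141 CPM. The values of *col-2*, *col-19* and *col-99* rest on 29, 8 and 18 counts over all libraries.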

How the results depend on the processing

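In edgeR 0 members passed an adjusted p under 0.1 in any setting tried, also at 0.05, while DESeq2 called 13. The number of higher members at an unadjusted p under 0.05 was 24 (22.6%, beside 8.8% of all transcripts), and 19 to 34 in the other scalings, filters and DESeq2. With a library left out it ranged from 11 to 46, beside 4.85% and 13.4% of all transcripts in those fits. The number of lower members ranged from 0 to 2 with a library left out, and was 1 with at least 10 counts in every library. The share over all transcripts was not computed for the other scalings and filters, nor for these lower members. Among abundant members, the number higher at an unadjusted p under 0.05 ranged from 8 to 29 with a library left out, in the same fits. The number higher ranged from 31 to 34. The number with all *ztf-11* KD libraries above all controls was 1 with library totals and 1 with at least 10 counts in every library. The share over all transcripts was not computed for those settings. That number ranged from 2 to 41 with a library left out, beside 4.05% and 13.2% of all transcripts in those fits. The number with all below was 0 with library totals, 0 with every transcript of at least 1 count and 0 with at least 10 counts in every library, and ranged from 0 to 2 with a library left out. For these counts no share over all transcripts was computed. The median log2 fold change of the members, 0.55, ranged from 0.36 to 0.80 with one library left out and from 0.41 to 0.67 otherwise.

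The log2 fold change of *ztf-11* was -1.97, with an adjusted p of 0.262. It was -2.001 in DESeq2, with an adjusted p of 1.2e-07, and -1.98 with every transcript of at least 1 count, with an adjusted p of 0.0031, and lay between -2.13 and -1.70 with one library left out.

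Of 409 log2 fold changes computed for 28 named members, 390 kept their direction and 19 turned, all of *col-121*, *col-76* or *col-17*. That of *col-121* turned to -0.018 in DESeq2, -0.017 with its size factors, -0.0084 with library totals, -0.0044 with every transcript of at least 1 count and -0.0091 with counts summed per gene, and lay between -0.13 and 0.12 with one library left out. That of *col-76* turned to -0.016 in DESeq2, -0.015 with its size factors, -0.0082 with library totals, -0.0032 with every transcript of at least 1 count and -0.0079 with counts summed per gene, and lay between -0.14 and 0.12 with one library left out. That of *col-17*, -0.44, lay between -1.78 and 0.92 with one library left out. The cause of these turns was not tested. With DESeq2, *col-10*, *col-65*, *col-159* and *ram-2* of the named members passed the threshold.

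Libraries of the same replicate number did not deviate together from their group means (r 0.0052, -0.30, -0.64 and -0.21 for numbers 1 to 4). Deviations from a group mean constrain one another, so these values cannot show whether libraries of a number shared a preparation. With the replicate number as a block, 6 members were higher and 0 lower at an unadjusted p under 0.05 and 0 passed the threshold, with a median log2 fold change of 0.62. The share over all transcripts was not computed for that fit, so these counts cannot be set beside a background. Comparisons of promoter windows and of protein identity between members were not run. Members that rest on few counts, above all those under 30 counts per library, have little depth, and genes with several transcripts are limited by the counting.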
